A study of Sus scrofa with 8 samples.

Results

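The transcripts of the calpain system were examined in the biceps femoris, which is a muscle of the hind limb, of female domestic piglets: the proteases CAPN1, CAPN2 and CAPN3, the small subunit CAPNS1 and the inhibitor calpastatin (CAST). Members were the probe sets that the platform annotation assigns to one of these 5 gene symbols alone, which gave 5 of 6765 genes and 11 of the 23935 probe sets of the Affymetrix porcine array left after its reporters were set aside. CAPN1 and CAPN2 had 1 probe set each, CAPN3 and CAPNS1 had 2 and CAST had 5, and the probe set with the highest mean level led each gene. The 4 corticosteroid arrays came from piglets sedated with isoflurane, morphine and ketamine, mechanically ventilated for 5 days, given streptomycin and benzylpenicillin, and treated with bolus hydrocortisone, a glucocorticoid. The 4 control arrays came from piglets kept under the same sedation, ventilation and antibiotics without hydrocortisone. The protocol text of the control samples adds a 1 h infusion of Escherichia coli endotoxin at 36 µg/kg/h, which their source label does not mention, and the series text names the neuromuscular blocker pancuronium without saying which animals received it. The corticosteroid text gives 8 piglets weighing 26.4 kg on average and the control text 4 weighing 25.5 kg. Endotoxin, blocker, batch and hydrocortisone therefore cannot be told apart, and all samples carry the label acute quadriplegic myopathy, the limb weakness of intensive care. Whether every array stands for a separate animal is not stated in the labels, and the p-values reflect only the spread among these samples.

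Calpains are cytosolic cysteine proteases that calcium activates, and they cut selected proteins at a few places rather than degrading them completely. CAPN1 and CAPN2 are the catalytic subunits of the ubiquitous µ-calpain and m-calpain, and each works as a heterodimer with CAPNS1. Calpastatin blocks both of these dimers when calcium is bound. CAPN3 is the calpain of skeletal muscle, is held on titin in the sarcomere, is not inhibited by calpastatin, and is the gene mutated in a recessive human limb-girdle muscular dystrophy. In muscle, calpain cleavage of Z-disc and cytoskeletal proteins is thought to free myofilaments for later degradation.

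In the deposited table the corticosteroid values did not appear to be in the row order of the probe IDs, so they were re-assigned to the IDs sorted with full stops ignored. CAPN2 and CAPNS1 lay in rows that this step leaves in place, and their values do not depend on it. The probe sets of CAPN1, CAPN3 and CAST, 8 in all, lay in rows that it moves. Over the 9389 moved probe sets the group means correlated with r = 0.0997 as deposited and 0.989 once re-assigned (across probe sets, which are not independent replicates). Each probe set has a log2 level per array, and these are nearly identically distributed on all arrays, and levels of different probe sets are not compared with each other. In this bulk tissue, fewer cells of a type and less RNA per cell cannot be told apart. Of 8 defining muscle-fibre genes, 6 were on the array under a single symbol and all 6 passed the filter on low values. Their summed linear level was 77160 to 80890 on corticosteroid arrays and 63780 to 80690 on control arrays. All 8 macrophage and all 6 fibroblast markers on the array passed as well, so passing does not identify the tissue.

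No member passed the test. Across all 14361 probe sets above the 40th percentile of mean level, limma with Benjamini-Hochberg adjustment called 0 (0%) at an adjusted p under 0.05, and 1363 (9.49%) had an unadjusted p under 0.05. Of the 11 member probe sets, 9 were tested and 2 CAST probe sets fell below the filter. CAPN1 and CAPN3 had higher means with corticosteroid by 0.81 and 0.88 on the log2 scale, CAPN2 and CAST differed by 0.0033 and 0.016, and the 2 probe sets of CAPNS1 pointed in opposite directions. Of the 9 tested member probe sets 7 had a higher mean with corticosteroid, with a median difference of 0.05, against 52.8% of all tested probe sets and a median of 0.02. The groups overlapped in all 9, while they did not overlap in 5.56% of all tested probe sets.

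**Figure D1:**
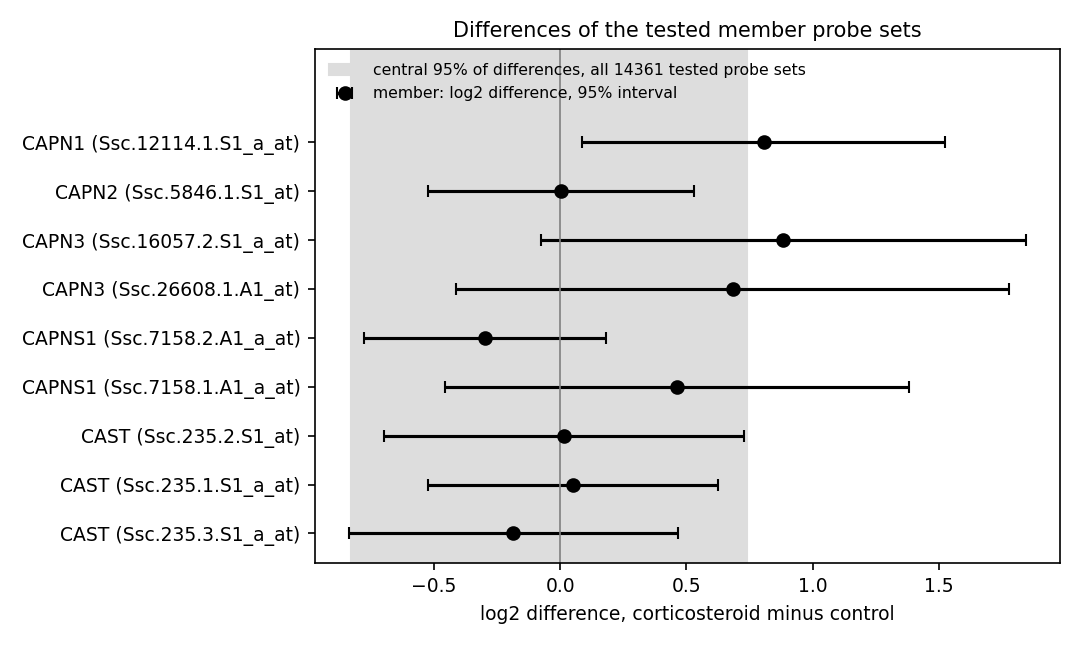
Log2 difference, corticosteroid minus control, of the 9 tested member probe sets with the 95% interval from limma (n = 4 arrays each), over a grey band holding the central 95% of the differences of all 14361 tested probe sets (-0.83 to 0.74). The points of CAPN1 (0.81) and the CAPN3 lead probe set (0.88) lie right of the band, and those of CAPN2 and the CAST lead probe set lie at about 0.

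CAPN1, the catalytic subunit of µ-calpain, had log2 levels of 7.68, 8.43, 8.33 and 9.18 on corticosteroid arrays 1 to 4, against 7.84, 7.92, 7.07 and 7.57 on control arrays 1 to 4. Corticosteroid arrays 2, 3 and 4 lay above every control array, and corticosteroid array 1 lay among the controls. The means were 8.41 ± 0.61 in corticosteroid-treated muscle and 7.60 ± 0.38 in control muscle (SD, n = 4 each). The difference of 0.81 (SE 0.32, 95% interval 0.09 to 1.53) corresponds to 1.75-fold, with an interval of 1.06 to 2.88. It was higher than 98.2% of all tested differences ranked with their sign, but its unadjusted p of 0.0318 became an adjusted p of 0.483 in limma. With each array left out in turn the difference ran from 0.55 without corticosteroid array 4 to 1.05 without corticosteroid array 1.

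CAPN2, the catalytic subunit of m-calpain, had log2 levels of 10.10, 10.49, 10.07 and 10.45 on corticosteroid arrays 1 to 4, against 10.43, 10.70, 9.68 and 10.29 on control arrays 1 to 4. All 4 corticosteroid arrays fell between control arrays 2 and 3, which were the highest and lowest of the 8. The means were 10.28 ± 0.23 with corticosteroid and 10.27 ± 0.43 in controls (SD, n = 4 each), a difference of 0.0033 (SE 0.23, adjusted p = 0.997 in limma). Its 95% interval of -0.52 to 0.53 leaves room for changes of 0.70-fold to 1.44-fold.

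CAPN3, the titin-bound muscle calpain, varied most between arrays among the member probe sets. Its lead probe set had log2 levels of 11.04, 11.72, 12.25 and 12.54 on corticosteroid arrays 1 to 4, against 11.74, 9.96, 10.80 and 11.51 on control arrays 1 to 4. Corticosteroid arrays 3 and 4 were above every control array, control arrays 2 and 3 were below every corticosteroid array, and the other four overlapped. The means were 11.89 ± 0.66 with corticosteroid and 11.00 ± 0.80 in controls (SD, n = 4 each). The difference was 0.88 (SE 0.43, 95% interval -0.08 to 1.84), or 1.85-fold, with an unadjusted p of 0.0671 and an adjusted p of 0.543 in limma. It was higher than 98.7% of all tested differences ranked with their sign. Without control array 2 it was 0.54, and 0.32 when corticosteroid array 4 was left out as well.

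The second CAPN3 probe set had log2 levels of 8.47, 9.59, 8.23 and 9.71 on corticosteroid arrays 1 to 4, against 9.37, 7.25, 8.05 and 8.60 on control arrays 1 to 4. It had its lowest value on control array 2 and its highest on corticosteroid array 4, as the lead probe set did, but corticosteroid array 3, high for the lead, was among the lower arrays here. The difference was 0.68 (SE 0.49, adjusted p = 0.641 in limma), and it was 0.33 without control array 2, 0.45 without corticosteroid array 4, 0.09 without both of these arrays and 1.03 without control array 1. Over the 8 arrays the 2 probe sets correlated with Pearson r = 0.778 (exact permutation p = 0.0222, adjusted p = 0.0278 over 5 such pairs) and Spearman rho = 0.738 (exact permutation p = 0.0458, adjusted p = 0.0573). Without the 2 arrays farthest from the median r was 0.349, and for deviations from the group means it was 0.719.

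**Figure D2:**
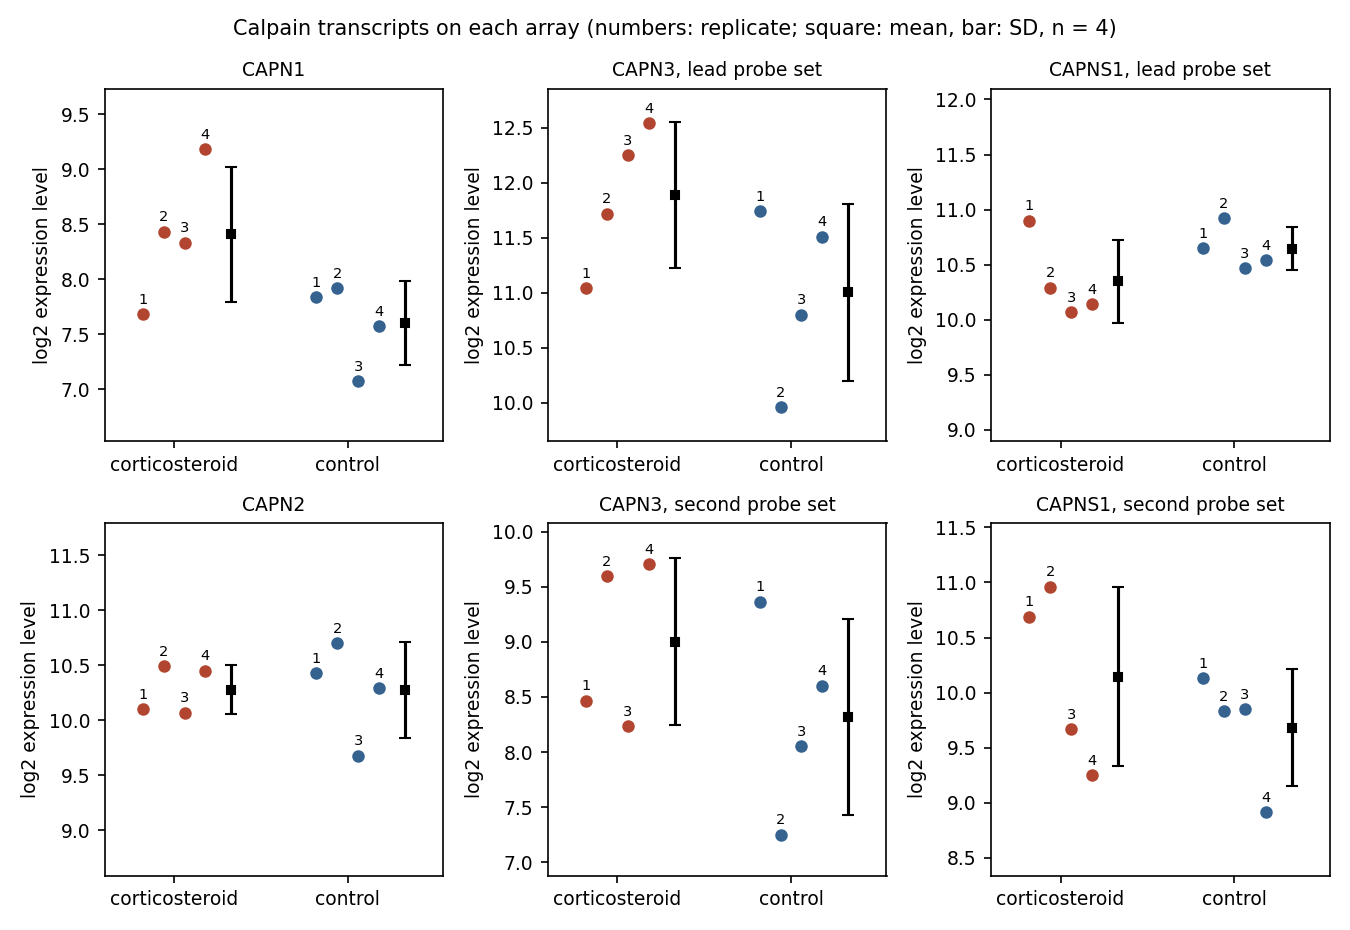
Log2 expression level (vertical axis, the same span in every panel) of the probe sets of CAPN1, CAPN2, CAPN3 and CAPNS1 on each corticosteroid array (left) and control array (right), numbered by replicate, with the mean and SD (n = 4) beside them. The groups overlap in every panel, CAPN3 is lowest on control array 2 in both of its panels, and the 2 CAPNS1 panels differ in which group is higher.

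CAPNS1, the small subunit shared by µ-calpain and m-calpain, gave no single direction. Its lead probe set had log2 levels of 10.90, 10.29, 10.07 and 10.14 on corticosteroid arrays 1 to 4, against 10.65, 10.92, 10.47 and 10.54 on control arrays 1 to 4. Corticosteroid arrays 2, 3 and 4 lay below every control array and corticosteroid array 1 was higher than all controls but array 2. The difference was -0.30 (SE 0.21, 95% interval -0.78 to 0.18, adjusted p = 0.642 in limma), and -0.48 without corticosteroid array 1. The second probe set had log2 levels of 10.69, 10.96, 9.67 and 9.25 on corticosteroid arrays 1 to 4, against 10.13, 9.83, 9.85 and 8.92 on control arrays 1 to 4. Here corticosteroid arrays 1 and 2 were above every control array, and corticosteroid arrays 3 and 4 were below controls 1 to 3. The difference was 0.46 (SE 0.41, 95% interval -0.46 to 1.38, adjusted p = 0.695 in limma), between 0.19 without corticosteroid array 2 and 0.76 without corticosteroid array 4. Over the 8 arrays the 2 probe sets had Pearson r = 0.257 (exact permutation p = 0.529) and Spearman rho = 0.262 (exact permutation p = 0.536), with the same p-values after adjustment over 5 pairs, and r was 0.304 without the 2 farthest arrays.

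Calpastatin, the inhibitor, was measured by 5 probe sets. The lead probe set had log2 levels of 9.35, 9.97, 10.15 and 8.97 on corticosteroid arrays 1 to 4, against 9.48, 9.05, 9.70 and 10.15 on control arrays 1 to 4. The highest arrays were corticosteroid array 3 and control array 4 and the lowest were corticosteroid array 4 and control array 2, so each group spanned nearly the whole range. The means were 9.61 ± 0.55 with corticosteroid and 9.59 ± 0.46 in controls (SD, n = 4 each), a difference of 0.016 (SE 0.32, 95% interval -0.70 to 0.73, adjusted p = 0.991 in limma). The other two tested CAST probe sets differed by 0.05 (SE 0.26, adjusted p = 0.956) and -0.19 (SE 0.29, adjusted p = 0.835).

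The 3 tested CAST probe sets ranked the arrays in nearly the same way. On all 3, corticosteroid array 3 was the highest and corticosteroid array 4 the lowest of the corticosteroid arrays, and control array 4 was the highest and control array 2 the lowest of the controls. Pearson r over the 8 arrays was 0.948, 0.924 and 0.934 for the 3 pairs, with exact permutation p-values adjusted over 5 pairs of 0.00149, 0.00149 and 0.00285. Spearman rho was 0.881, 0.952 and 0.833 (adjusted exact permutation p of 0.0181, 0.0057 and 0.0256). Without the 2 arrays farthest from the median r was 0.904, 0.920 and 0.724. Deviations from the group means gave 0.950, 0.952 and 0.980. In the rows as deposited the corticosteroid values on arrays 1 to 4 were 3.97, 4.10, 3.90 and 3.83 for the lead. They were 4.45, 4.28, 4.07 and 4.46 for the next probe set and 6.19, 6.37, 5.84 and 5.78 for the third. There the lead and the third ranked these arrays alike, with array 2 highest, while the next had array 4 highest. The 2 untested CAST probe sets had mean log2 levels of 4.40 and 3.77 with corticosteroid and 4.66 and 3.72 in controls, below the filter level of 5.27.

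**Figure D3:**
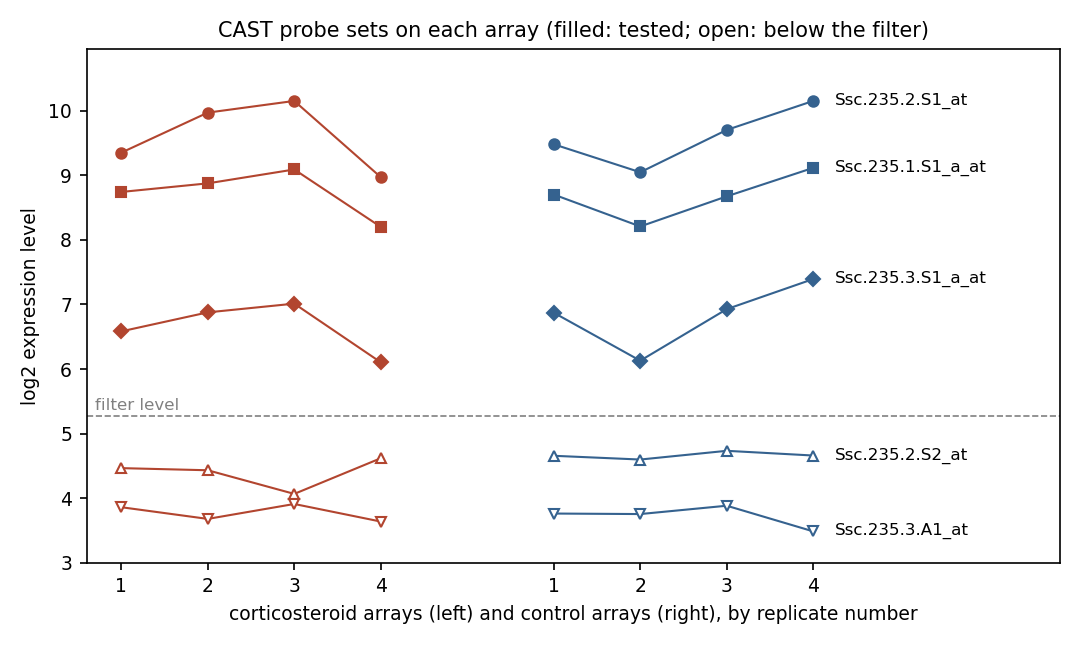
Log2 expression level of the 5 CAST probe sets on corticosteroid arrays (left) and control arrays (right), with filled symbols for the 3 tested probe sets, open symbols for the 2 below the filter level (dashed line), and lines joining values of the same probe set. The 3 tested probe sets dip together on corticosteroid array 4 and control array 2.

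To compare proteases with their inhibitor, the log2 value of the CAST lead probe set was subtracted from that of each calpain on the same array, and the result was expressed as the deviation from its mean over the 8 arrays. No such balance differed between the groups in an exact permutation test over the arrays (two-sided), which with 4 against 4 cannot go below p = 0.0286. CAPN1 minus CAST stood at -0.07, 0.06, -0.22 and 1.81 on corticosteroid arrays 1 to 4, against -0.04, 0.47, -1.03 and -0.98 on control arrays 1 to 4. Only corticosteroid array 4 exceeded every control array, and control arrays 3 and 4 were below every corticosteroid array. The group difference was 0.79 (95% interval -0.10 to 1.68 in limma, exact permutation p = 0.257), or 1.73-fold, and 0.32 without corticosteroid array 4.

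CAPN3 minus CAST, a balance of transcripts whose products are not known as protease and inhibitor of each other, stood at -0.16, -0.09, 0.25 and 1.73 on corticosteroid arrays 1 to 4, against 0.42, -0.93, -0.75 and -0.48 on control arrays 1 to 4. Control arrays 2, 3 and 4 lay below every corticosteroid array, and control array 1 lay above corticosteroid arrays 1 to 3. The group difference was 0.87 (95% interval -0.01 to 1.75 in limma, exact permutation p = 0.143), and it was 0.44 without corticosteroid array 4 and 0.27 without corticosteroid array 4 and control array 2. CAPN2 minus CAST differed by -0.013 (95% interval -0.90 to 0.87, exact permutation p = 1). CAPNS1 minus CAST differed by -0.31 (95% interval -1.20 to 0.57, exact permutation p = 0.514). With the mean of all its probe sets in place of the lead, CAPNS1 minus CAST turned to 0.15. In a limma fit of all 14360 other tested probe sets minus CAST, 13 (0.0905%) had an adjusted p under 0.05, and all 4 calpain balances had an adjusted p of 1.

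**Figure D4:**
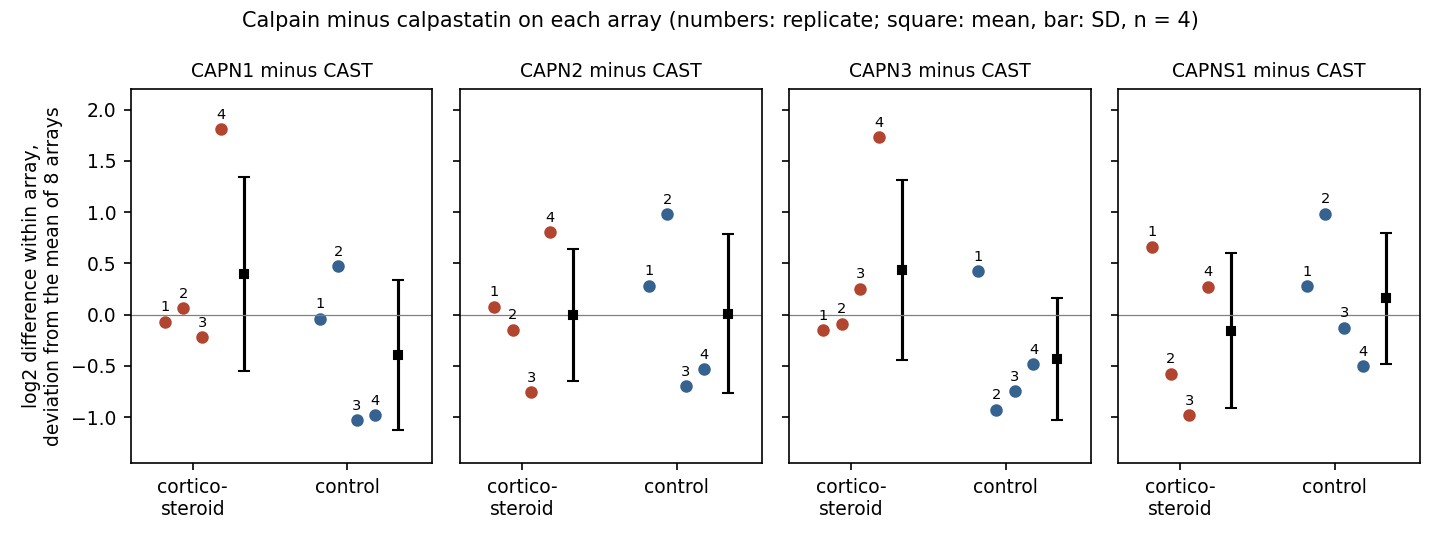
Within-array log2 difference of each calpain transcript from the CAST lead probe set, as the deviation from its mean over 8 arrays (vertical axis), on corticosteroid arrays (left) and control arrays (right), numbered by replicate, with mean and SD (n = 4). The groups overlap in all 4 panels, and corticosteroid array 4 is the highest array for CAPN1 (1.81) and CAPN3 (1.73).

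The genes most like the lead probe set of each member over the 8 arrays were found among the 5405 other genes by Pearson r. Since they were picked as the highest of so many, r is a description. CAPN3 followed PPP1R1A, an inhibitor of protein phosphatase 1 (r = 0.987), MYOZ1, a Z-disc protein of fast fibres (0.974), and GAMT, an enzyme of creatine synthesis (0.973). PPP1R1A had log2 levels of 11.96, 12.77, 12.94 and 13.39 on corticosteroid arrays 1 to 4, against 12.69, 10.84, 11.45 and 12.45 on control arrays 1 to 4. It was lowest on control array 2 and highest on corticosteroid array 4, as CAPN3 was, and 119 genes had an r above 0.9 with CAPN3. CAPN1 followed TBC1D9B, a Rab GTPase-activating protein (0.977), FSTL3, a secreted binder of activin and myostatin (0.965), and VWA1, a matrix protein (0.964). CAPN2 followed TMEM19 (0.929), RNFT1 (0.926) and the decapping scavenger DCPS (0.919). CAPNS1 followed REXO2, an oligoribonuclease (0.947), KIAA0391, the nuclease of mitochondrial RNase P (0.943), and COX7A2, a cytochrome c oxidase subunit (0.942). CAST followed the clock gene ARNTL (0.971), the motor MYO6 (0.956) and the splicing factor SLU7 (0.947). None of these 15 genes passed the test, with adjusted p-values in limma of 0.524 or more.

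The members did not rank the arrays alike. Between lead probe sets r was 0.661 for CAPN1 and CAPN3, 0.542 for CAPN1 and CAPN2, and -0.020 for CAPN2 and CAPN3. CAST had r of -0.279 with CAPN1, -0.387 with CAPN2 and 0.264 with CAPN3. The lowest value was -0.816, between the lead probe sets of CAPN3 and CAPNS1, and 5144 of the 5405 genes had a higher r with CAPN3 than CAPNS1 had. The second CAPNS1 probe set, which had r = 0.257 with its lead, was not part of this comparison. These values share the same 8 arrays and are given as a description.

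The CAPN3 lead probe set stood beside the fast-fibre genes on these arrays. The score of the 9 fast-fibre genes tested (the mean of their log2 levels, each centred over the 8 arrays) was 0.04, 0.29, 0.33 and 0.47 on corticosteroid arrays 1 to 4, against 0.19, -0.93, -0.48 and 0.08 on control arrays 1 to 4. The array order was that of the CAPN3 lead probe set except for corticosteroid array 2 and control array 1, which changed places. All relations with the scores used lead probe sets, and the second CAPN3 probe set was not set against them. Like the lead, that probe set was lowest on control array 2 and highest on corticosteroid array 4. On corticosteroid array 3, however, it was among its lower values (8.23). Pearson r was 0.951 (exact permutation p = 4.96e-05, adjusted p = 0.000744) and Spearman rho was 0.976 (exact permutation p = 0.000397, adjusted p = 0.00595), adjusted over 15 relations of the 5 members with the fast-fibre, slow-fibre and macrophage scores. These relations were added after the values were seen, which the adjustment does not cover, so the p-values are a description. The permutation also ran over all 8 arrays, and both CAPN3 and the score had higher means with corticosteroid. Pearson r was 0.949 without the 2 arrays farthest from the median and 0.929 for deviations from the group means, while the 4 arrays of a single group are too few for a value of their own. No other relation passed the adjustment, and the next smallest adjusted p for Pearson r was 0.0956 for CAPN3 with macrophage markers (r = -0.806), which was -0.08 without the 2 farthest arrays. The fast-fibre score also had r = 0.582 and rho = 0.714 with CAPN1, and r = -0.662 and rho = -0.810 with the CAPNS1 lead probe set. Without the 2 farthest arrays r was 0.958 for CAPN1 and -0.878 for the CAPNS1 lead. For deviations from the group means it was 0.264 and -0.519. The second CAPNS1 probe set, which had r = 0.257 with its lead, was not set against the score, so these values do not speak for the gene. All 9 fast-fibre genes had a higher mean with corticosteroid, 4 with an unadjusted p under 0.05 (5.27% of all genes in that direction) and 0 with an adjusted one. In 2 of these 9 the groups did not overlap, against 5.42% of all genes in either direction. All 10 slow-fibre genes tested had a lower mean with corticosteroid, with a median difference of -0.96. Of these, 6 had an unadjusted p under 0.05 (3.9% of all genes in that direction) and 0 an adjusted p under 0.05. The groups did not overlap in 4 of the 10, against the same 5.42% of all genes. CAPN3 had r = -0.759 with the slow-fibre score (exact permutation p = 0.0278, adjusted p = 0.139) and rho = -0.619 (exact permutation p = 0.115, adjusted p = 0.345), and r was -0.219 without the 2 arrays farthest from the median. The part of the fibre genes in the CAPN3 difference was not tested.

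**Figure D5:**
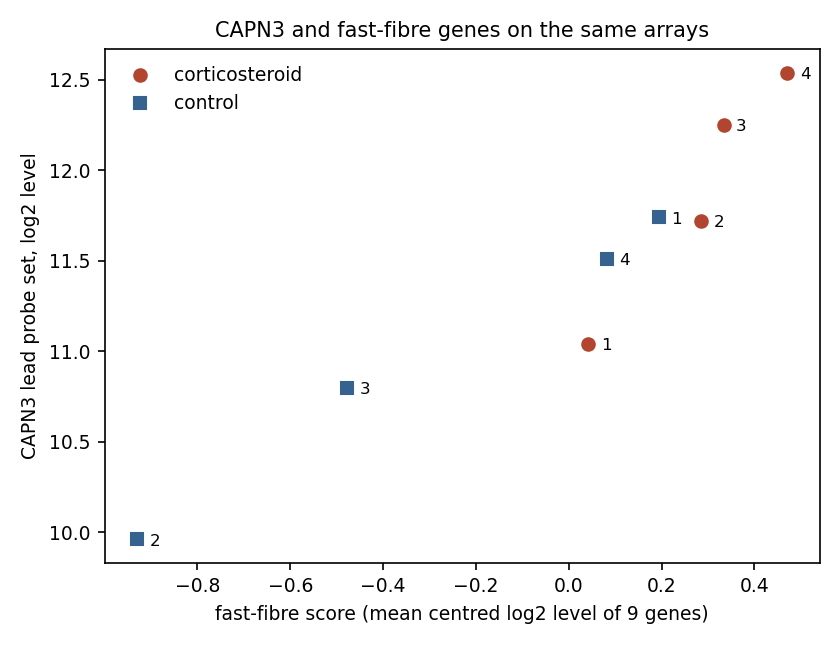
Log2 level of the CAPN3 lead probe set (vertical axis) against the fast-fibre score (horizontal axis, mean centred log2 level of 9 genes) on the 4 corticosteroid arrays (circles) and the 4 control arrays (squares), numbered by replicate. Corticosteroid array 4 lies at the upper right (0.47, 12.54) and control array 2 at the lower left (-0.93, 9.96), with the other arrays along the line between them.

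Control array 2 and corticosteroid array 4 stood apart in ways that touch these values. Control array 2, lowest for CAPN3, had a macrophage marker score of 1.89, against -0.78 to -0.07 on the corticosteroid arrays and -0.49 to 0.02 on the other control arrays. The summed linear level of the 8 macrophage markers tested was 678 to 1226 on corticosteroid arrays and 941 to 4620 on control arrays, 8 of 12 listed markers were on the array under a single symbol, and none of those fell below the filter. Corticosteroid array 4, highest for CAPN1 and CAPN3, had the lowest score of the 16 atrophy and glucocorticoid-target genes (-0.79, against 0.47 to 0.56 on the other corticosteroid arrays and -0.68 to 0.20 on controls). The part of either array's makeup in the calpain differences was not tested.

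Other calpains on the array differed little in their means. CAPN10 and CAPN7, the only 2 of 13 further family members listed under a single symbol, differed by -0.0087 (SE 0.15) and 0.020 (SE 0.16). CAPN7 had mean log2 levels of 8.41 ± 0.17 with corticosteroid and 8.39 ± 0.04 in controls (SD, n = 4 each).

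Genes listed here as calpain substrates and partners in muscle had mean differences of both signs. Of the 22 tested 0 passed over all genes, against 0% of the 5406 genes tested. The list was chosen with earlier results of these data known, so its counts are a description. Of these 22, 10 had higher and 12 lower means with corticosteroid, with a median difference of -0.09, against 54.0% higher and a median of 0.03 over all genes. An unadjusted p under 0.05 was reached by 2 higher and 2 lower members, against 5.27% of all genes higher and 3.9% lower (9.17% in all). Slow troponin T (TNNT1) differed by -1.78 (SE 0.40) and the tyrosine phosphatase PTPN1 by -0.94 (SE 0.23), and neither group pair overlapped (adjusted p = 0.469 in limma for both). Fast troponin T (TNNT3) differed by 0.66 (SE 0.21) without overlap and tropomyosin 1 (TPM1) by 0.59 (SE 0.21) with overlap (adjusted p = 0.479 in limma for both). Groups did not overlap in 3 of the 22, against 5.42% of all genes. The 22 include troponins and tropomyosin that are also fibre-type genes.

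Other routes of muscle protein breakdown held no gene that passed. Of 12 lysosomal cathepsins and their inhibitors tested, 4 had higher and 8 lower means with corticosteroid, with a median difference of -0.51. Over all genes 54.0% were higher and the median was 0.03. Only CST3, which was higher, had an unadjusted p under 0.05 in limma, as did 5.27% of all genes higher and 3.9% lower. The lysosomal proteases LGMN and CTSS differed by -1.13 (SE 0.50) and -1.40 (SE 0.69), and the cysteine protease inhibitors CST3 and CST6 by 0.49 (SE 0.21) and 0.60 (SE 0.35), with adjusted p-values in limma of 0.524 to 0.580. The score of this list was 1.59 on control array 2, against -0.37 to -0.07 on corticosteroid arrays and -0.41 to 0.03 on the other control arrays. Of 16 atrophy ligases and glucocorticoid targets tested, 13 had higher means with corticosteroid, with a median difference of 0.45, against 54.0% higher and a median of 0.03 over all genes. An unadjusted p under 0.05 was reached by 2 members, both higher, against 5.27% of all genes higher and 9.17% in all. The ubiquitin ligase FBXO32 had log2 levels of 12.90, 12.46, 13.19 and 10.37 on corticosteroid arrays 1 to 4, against 12.64, 11.68, 10.76 and 12.87 on control arrays 1 to 4. It was lowest on corticosteroid array 4, where CAPN1 was highest, and its difference was 0.24 (SE 0.64, adjusted p = 0.911 in limma). PER1, a clock gene that glucocorticoids induce, differed by 0.81 (SE 0.23) and the transcription factor CEBPB by 0.62 (SE 0.27), with adjusted p-values of 0.479 and 0.524 in limma. The stress gene SESN1 differed by 0.94 (SE 0.45) and the growth inhibitor MSTN by 1.17 (SE 0.59). The glucocorticoid receptor NR3C1, its partner FKBP5 and its target TSC22D3 differed by -0.18 (SE 0.23), 0.45 (SE 0.47) and 0.81 (SE 0.68), and no probe set carried TRIM63 as its single symbol in the annotation used here.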

How the data were processed

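The table deposited by the authors holds a log2 level for every probe set of 8 Affymetrix porcine arrays, 4 a group, grouped by sample title. Per the submitters' processing notes the authors used MAS5, and for their scaling between arrays and any genome build the sources used here give nothing. The medians of the arrays lay between 5.86 and 5.97, and the values were used unscaled. Corticosteroid values were re-assigned to the probe IDs sorted as text with full stops ignored, an order found from the values, with 0 tied IDs. It moves 9389 of 23999 probe sets. The 64 reporters were left out. Probe sets were named from the platform annotation (10069 with 1 symbol, 198 with several, 13732 with none), and all 11 member probe sets kept their symbol in the current RefSeq gene table. No sequences or coordinates are given.

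The comparison used limma 3.58.1 under R 4.3.3 (lmFit, eBayes with intensity trend) over the 14361 probe sets whose mean lay above the 40th percentile, with Benjamini-Hochberg adjustment at 0.05, after a check on simulated data. Balances with CAST used an exact permutation test over 70 regroupings. The named genes were all members, the 3 genes of highest r with each, up to 4 genes of smallest p in each list described, and FBXO32, FKBP5, TSC22D3 and NR3C1 (TRIM63, also in the rule, had no probe set under a single symbol). The members and lists were chosen with earlier results of these data known, and the relations with fibre and macrophage scores were added after these values were seen. The number of arrays limits the precision: the median standard error was 0.22 log2 units. No 2 arrays were copies of each other (highest r = 0.985 over probe sets). Python 3.11.15, pandas 2.3.3, numpy 2.4.6 and scipy 1.17.1 were used.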

Additional observations from a re-analysis of the deposited data

Results flagged for a closer look

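CAPN1 minus CAST on corticosteroid array 4 stood at 1.81, against 0.06 on the next highest corticosteroid array, and this gap was 0.859 of the range of its group, above Dixon's critical value for 4 samples. It was the only such value in 30 groups examined (11 probe sets and 4 balances in each treatment group), and chance flags about 1 in 20 groups. On that array CAPN1 had its highest level (9.18) and the CAST lead probe set its lowest (8.97). Without it the group difference in CAPN1 minus CAST was 0.32 rather than 0.79.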

How the results depend on the processing

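In limma 0 probe sets passed under each alternative run except the rows as deposited (5454) and the fit without control array 3. With each array left out the count ran from 0 to 1, and the 1 probe set was not a member. At an unadjusted p under 0.05 the number without each array ran from 894 to 1777. With the rows as deposited the difference was -4.69 and -1.87 for the 2 CAPN3 probe sets, -5.65, -4.36 and -0.78 for the 3 CAST probe sets and -4.39 for CAPN1, which then fell below the filter. The balances with CAST were then 1.25 for CAPN1, 5.65 for CAPN2 and 5.35 for CAPNS1 (exact permutation p = 0.0286 each). That of CAPN3 was 0.96 (exact permutation p = 0.0857). These values set different probe sets against each other if the re-assignment holds. Values near 0 changed sign: CAPN2 was -0.013 after quantile normalization and -0.20 to 0.14 without each array, the CAST lead probe set was -0.014 with array weights and -0.17 to 0.23 without each array, and the other two CAST probe sets ran from -0.10 to 0.23 and from -0.42 to 0.0015. CAPN2 minus CAST was 0.070 with all probe sets averaged, 0.040 without control array 2 and corticosteroid array 4, and -0.28 to 0.31 without each array. CAPNS1 minus CAST was 0.15 with all probe sets averaged and -0.59 to -0.04 without each array. CAPN1 minus CAST and CAPN3 minus CAST ran from 0.32 to 1.08 and from 0.44 to 1.15 without each array. Without each array the exact permutation p of every balance was 0.0857 or more. The cause of each change of sign was not tested. Replicate numbers did not pair the arrays: same-numbered arrays had correlations of deviations of -0.246, 0.109, 0.105 and 0.0535. With the replicate number as a block limma called 0, and the paired differences were 0.79, -0.013, 0.87 and -0.31 for CAPN1, CAPN2, CAPN3 and CAPNS1 minus CAST (exact sign-flip p of 0.5, 1, 0.25 and 0.625, the smallest possible being 0.125).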

Other observations

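Calcium activates the calpains, and genes that handle calcium in the sarcoplasmic reticulum were measured on the same arrays. Of 26 listed, 12 were tested, 7 with higher and 5 with lower means with corticosteroid, and 0 passed in limma over all genes tested, and 1 higher and 2 lower members had an unadjusted p under 0.05, as did 5.27% of all genes higher and 3.9% lower. The slow and cardiac calcium pump ATP2A2 had log2 levels of 10.55 ± 0.40 with corticosteroid and 11.63 ± 0.44 in controls (SD, n = 4 each), and its inhibitor phospholamban (PLN) differed by -1.34 (SE 0.38, adjusted p = 0.469 in limma). The fast-fibre pump ATP2A1 differed by 1.30 (SE 0.58) and the histidine-rich calcium-binding protein HRC by 0.92 (SE 0.40), both with adjusted p = 0.524 in limma.

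Caspases, the proteases of apoptosis, and their regulators had 6 tested genes, 3 with higher and 3 with lower means. DIABLO, a mitochondrial protein that relieves caspase inhibition, differed by 0.70 (SE 0.22) without overlap of the groups (adjusted p = 0.479 in limma). CASP6 differed by 0.26 (SE 0.35), CASP1 by -0.54 (SE 0.48) and the caspase-8 regulator CFLAR by -0.41 (SE 0.33).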
